A study of Mus musculus with 12 samples.

Results

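The genes described here encode the nuclear part of the mitochondrial respiratory chain, that is, the subunits of complexes I to V that are made in the cytosol and imported, together with cytochrome c. They were chosen by symbol from the deposited count table: all symbols starting with Nduf other than the Ndufaf assembly factors, with Uqcr, with Cox4 to Cox8 or with Atp5, together with Sdha, Sdhb, Sdhc, Sdhd, Cyc1 and Cycs, leaving out symbols that hold -ps. This gave 91 genes of the 55418 in the table: 41 of complex I, 4 of complex II, 9 of complex III, Cycs, 19 of complex IV and 17 of complex V. The annotation of the same release gives 87 of them as protein coding and 4 (Ndufs6b, Ndufa11b, Ndufb4c and Cox6c2) as processed pseudogenes.

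The study followed the healing of cut and sutured Achilles tendons in mice with and without tenomodulin, a membrane glycoprotein of mature tendon cells. The data here are from its pilot sequencing of single cells, which asked how loss of tenomodulin changes the transcriptome of tendon lineage cells. Cells were released with collagenase from uninjured, untreated Achilles tendons of mice on a C57BL/6 background, picked under a micromanipulator for the green fluorescence of a reporter driven by Scleraxis (ScxGFP), a tendon transcription factor, and sequenced cell by cell with the full-length Smart-Seq2 protocol. There were 6 cells labelled Tnmd-/- ScxGFP+ and 6 labelled Tnmd WT ScxGFP+, so that all cells of both groups carried the reporter. The deletion is constitutive and not limited to tendon. No label ties a cell to an animal, and the methods give n = 2 for the tendons, so each genotype was taken as 1 sample. No p-value is given, and intervals cover the counting error of reads only. Amplified copies of 1 molecule were counted separately, so the intervals are too narrow for the counting error of molecules. The Tnmd gene is X-linked, and the WT mice of the study were hemizygous males and homozygous or heterozygous females. The age of the mice behind these cells is not given in the sources used here. The study marked cells 9, 10 and 20 of the Tnmd-/- group and cells 4, 5 and 10 of the WT group as less degraded and the other 3 cells of each genotype as more degraded. How that level was measured is not given in the sources used here, and ratios within a level are given beside the pooled ratios of most named genes.

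The respiratory chain passes electrons from NADH (through complex I) and from succinate (through complex II) to complex III, then by cytochrome c to complex IV, which reduces oxygen. Complexes I, III and IV pump protons as they do so, and complex V, the ATP synthase, uses the return flow of protons to make ATP. Complexes I, III, IV and V combine subunits of nuclear origin with a few encoded on mitochondrial DNA, while complex II and cytochrome c are wholly nuclear. Several subunits of complex IV exist as isoforms used in different tissues, with forms for heart and skeletal muscle, for testis and for most other tissues. Tendon is a tissue of sparse cells and low oxygen use.

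Many genes of this kind share promoter motifs for nuclear respiratory factor 1 (NRF1), for the ETS factor GABP, also called nuclear respiratory factor 2, and for YY1, and stretches of 5 promoters with such letters are shown so that the shared sequence can be seen beside the levels given below. RefSeq promoter windows (build GRCm38.p6, 250 bases before to 50 bases after the start of the gene) were at hand for 68 of the 91 members, in 73 windows. The 8 letters GCATGCGC of the NRF1 core stood on either strand in 15.1% of the member windows and in 2.71% of all 32851 windows. The 7 letters CCGGAAG of the ETS core stood in 21.9% and 8.86%, and the 8 letters AAGATGGC of the YY1 core in 12.3% and 2.75%. Both strands were searched, and a match is a description of the letters, not of a bound site. The stretches run 5′ to 3′ on the strand of the gene, end before its start, leave out annotated exons of neighbouring genes and have the motif letters in capitals. In Ndufa11 and Cox6a1 the NRF1 core is present on both strands, overlapping itself. The windows of Cox6a1 and Uqcr11 each hold 1 more match (ETS at -16 and NRF1 at -4, counted back from the base before the start) that the stretches do not cover. The stretches are chr17:56717686-56717761 (plus strand) for Ndufa11, chr9:50603850-50603909 (minus strand) for Sdhd, chr10:80406831-80406980 (minus strand) for Uqcr11, chr6:50566570-50566642 (minus strand) for Cycs and chr5:115348982-115349129 (minus strand) for Cox6a1. The capitals mark the NRF1 core in Ndufa11, Cycs and Cox6a1 and the ETS core in Sdhd and Uqcr11.
Ndufa11: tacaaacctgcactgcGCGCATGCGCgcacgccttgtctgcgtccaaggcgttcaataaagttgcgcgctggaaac
Sdhd: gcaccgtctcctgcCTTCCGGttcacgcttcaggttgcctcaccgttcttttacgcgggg
Uqcr11: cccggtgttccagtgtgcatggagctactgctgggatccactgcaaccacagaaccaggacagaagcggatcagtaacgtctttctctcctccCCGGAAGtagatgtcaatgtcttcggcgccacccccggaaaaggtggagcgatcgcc
Cycs: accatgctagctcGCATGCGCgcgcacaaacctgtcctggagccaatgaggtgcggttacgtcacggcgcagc
Cox6a1: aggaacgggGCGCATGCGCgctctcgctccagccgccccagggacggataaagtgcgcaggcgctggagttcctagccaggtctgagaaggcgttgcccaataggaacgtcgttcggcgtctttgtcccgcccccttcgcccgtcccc

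Library totals ran from 892713 to 10333351 counts in the Tnmd-/- cells and from 4516036 to 13613080 in the WT cells, and the less degraded cells (6742665 counts and above) were all deeper than the more degraded cells (5991316 and below). The targeted gene did not separate the groups cell by cell, since Tnmd had 10178 counts in WT cell 14, 7 in WT cell 2, 0 in the other 4 WT cells and 0 to 5 in the Tnmd-/- cells. Among 9 tendon markers, Col1a2, Dcn and Comp reached 10 counts in every cell, and Scx did so in 3 WT cells and in no Tnmd-/- cell. Col1a2 was only 0.97 CPM in Tnmd-/- cell 10 and 2.28 CPM in WT cell 2. Thbs4 reached 10 counts in 5 cells of each genotype and Fmod in 3 Tnmd-/- and 5 WT cells. Col1a1 did so in 1 Tnmd-/- and 4 WT cells, Mkx in 1 and 2, and Tnmd in 0 and 1. The 9 summed to 1684.0 CPM (counts per 1000000 counts of the cell) in Tnmd-/- cell 3 and to 15383.4 to 176923.1 CPM in the others. Most of this was Dcn, with 40009.7 of 52142.6 pooled CPM in Tnmd-/- and 56340.3 of 69467.1 in WT. Markers of brown adipocytes and red blood cells were at 0 in every cell, and those of adipocytes (3 genes) and immune cells (3 genes) summed to at most 0.62 and 0.87 CPM. The 8 skeletal muscle markers summed to 22.6 CPM in Tnmd-/- cell 3, to 6.72 in cell 7 and to at most 2.52 elsewhere, and the 3 endothelial markers to 30.1 CPM in Tnmd-/- cell 1 and at most 1.99 elsewhere. Tnmd-/- cell 3 also stood apart by the 51.8% of its counts that fell on mitochondrially encoded genes, against 1.75% to 7.30% in the other 11 cells.

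Taken over all 91 genes, the nuclear-encoded subunits made up about the same small share of the RNA in most cells of both genotypes. Their summed level was lowest at 3359.4 CPM, median 9722.9 and highest at 11435.8 in the Tnmd-/- cells, and 5901.8, 8738.3 and 11066.9 CPM in the WT cells. The 3 lowest were Tnmd-/- cells 3 and 7 and WT cell 2, all of them more degraded, and the other 9 cells had 7247.1 CPM or more. With mitochondrially encoded genes left out of the totals, Tnmd-/- cell 3 had 7606.4 CPM, more than WT cell 14 (7419.6). Tnmd-/- cell 7 (3624.0) and WT cell 2 (6118.6) stayed low. Pooled over the cells of a genotype, the sum was 9964.2 CPM (349629 counts) in Tnmd-/- and 9075.7 CPM (485001 counts) in WT, a log2 ratio of 0.14 (95% Clopper-Pearson interval 0.13 to 0.14). With equal weight for each cell the ratio was -0.088. It was -0.25 with equal weight and edgeR's TMM factors, and -0.69 with equal weight and DESeq2's size factors. Its direction thus changed with the weight of the cells, before the scaling was changed. In CPM every WT cell lay within the range of the Tnmd-/- cells. All values under TMM or DESeq2 scaling below also have equal weight for each cell. DESeq2's size factor was 0.55 for WT cell 14 with 4516036 counts, against 1.38 for WT cell 2 with 4825610 counts. A factor that is small for the total raises the level of a cell. How far the DESeq2 values here and below rest on WT cell 14 was not tested.

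**Figure D1:**
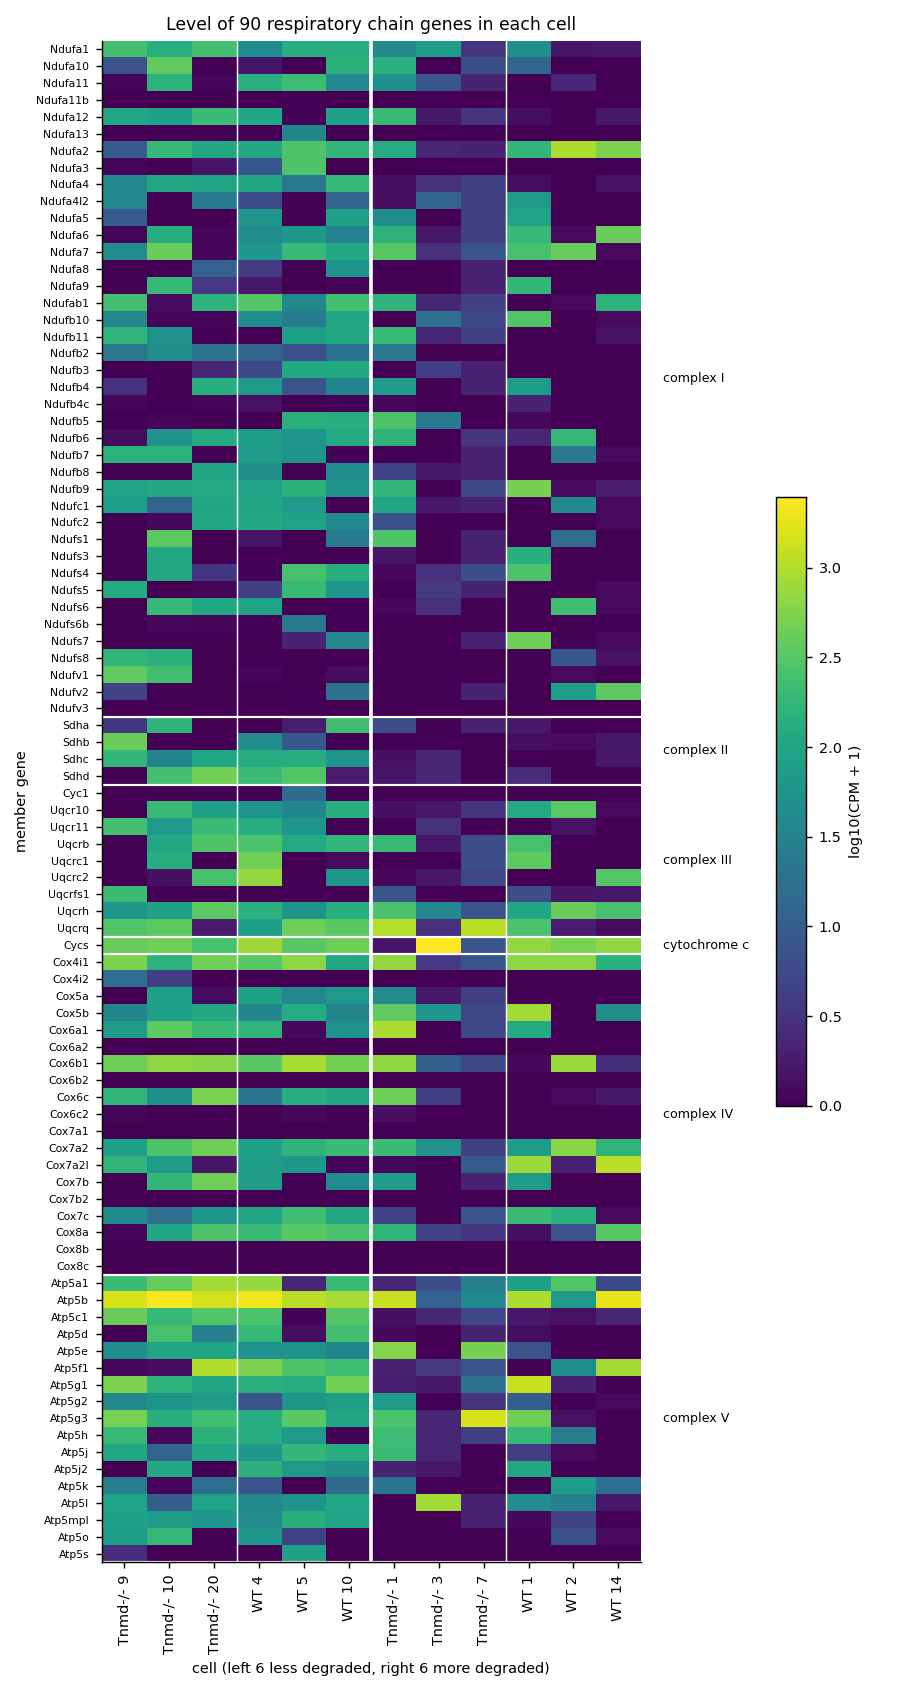
Level of 90 of the 91 genes (rows, by complex) in each of the 12 cells (columns, the 6 less degraded cells on the left), as log10(CPM + 1). Most rows change from dark to bright within a genotype, the 4 rows of complex II are dark (at most 5.27 CPM) in all 6 more degraded cells, and Tnmd-/- cells 3 and 7 hold a few bright rows, among them Cycs and Atp5g3.

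Which members carried the sum differed from cell to cell. Atp5b, the catalytic beta subunit of the ATP synthase, was the member with the most counts in 8 of the 12 cells, where it gave 10.8% to 25.7% of the counts of all members. In Tnmd-/- cell 3 the leading member was Cycs with 67.5% of the member counts, in Tnmd-/- cell 7 it was Atp5g3 with 45.3%, in WT cell 1 Atp5g1 with 12.4% and in WT cell 2 Ndufa2 with 16.1%. The 3 leading members together gave 92.3% and 92.5% of the member counts in Tnmd-/- cells 3 and 7, against 22.3% to 52.9% in the other 10 cells. These 2 cells thus had a sum of CPM that rested on a few genes.

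The number of members with at least 10 counts in a cell was 6 at the lowest, 44.5 at the median and 56 at the highest in Tnmd-/- cells, and 16, 48.5 and 63 in WT cells. The 6 less degraded cells held 48 to 63 such members and the 6 more degraded cells 6 to 41, with no overlap. Within the less degraded cells the 3 WT cells held 58 to 63 members and the 3 Tnmd-/- cells 48 to 56, with library totals of 12019550 counts and above against 10333351 and below. Thinning every cell at random to 892713 counts, as many as the shallowest holds, gave 44 to 59 in the less and 6 to 36 in the more degraded cells, and the less degraded cells then overlapped between genotypes, at 51 to 59 (WT) and 44 to 53 (Tnmd-/-). Across the 12 cells the number went with the library total (Spearman's rho 0.979, n = 12) and, after thinning, with the number of all genes at 10 counts (rho 0.909, n = 12). These correlations are given as a description, since the counts of members are part of the totals. Members with 1 to 9 counts were most numerous in Tnmd-/- cell 7 (53), Tnmd-/- cell 3 (32) and WT cell 14 (26), against 7 to 19 in the other 9 cells.

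**Figure D2:**
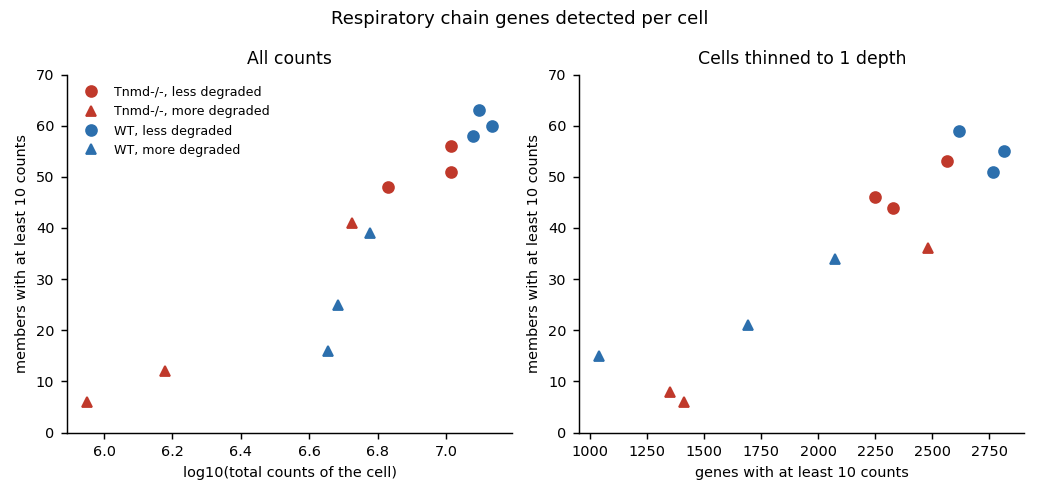
Number of the 91 genes with at least 10 counts in each cell, against the library total on a log10 scale (left) and, after thinning every cell to 892713 counts, against the number of all genes with at least 10 counts (right). Circles are less degraded and triangles more degraded cells, red Tnmd-/- and blue WT. The circles lie above the triangles in both panels, at 48 to 63 against 6 to 41 members on the left. Among the circles the 3 WT cells (58 to 63) lie above the 3 Tnmd-/- cells (48 to 56) on the left and overlap them on the right.

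Of the 91 members, 7 had no count in any cell, 3 had fewer than 20 counts over all cells (Ndufv3 with 1, Cox6c2 with 5 and Ndufb4c with 16) and 81 had at least 20 and entered the ratios below. The median member of these 81 had at least 10 counts in 6 of the 12 cells, against 2 cells for the median of all 9768 genes with at least 20 counts, whose counts were lower (median 1572.5 against 6295.0 for the members). Atp5b reached 10 counts in all 12 cells, as did 2.18% of all genes. At the other end 4 members (4.94%) reached 10 counts in a single cell, against 39.0% of all genes.

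Between the genotypes the members differed in both directions, at shares below those of all genes. Pooled CPM was at least 2-fold higher in Tnmd-/- for 19 of 81 members, while 39.7% of all 9768 genes were that much higher, and at least 2-fold lower for 21 members, while 38.3% of all genes were. The median member had a log2 ratio of -0.021, beside 0.081 for all genes. In the less degraded cells alone 20 of 81 members were at least 2-fold higher (37.4% of all genes) and 22 lower (40.3%), and in the more degraded cells 26 of 70 were higher (47.1%) and 23 lower (38.4%). Not 1 member had all cells of a genotype above all cells of the other, which 0.041% of all genes had. Members had more counts than genes at large, and the part of this in the lower shares was not tested.

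**Figure D3:**
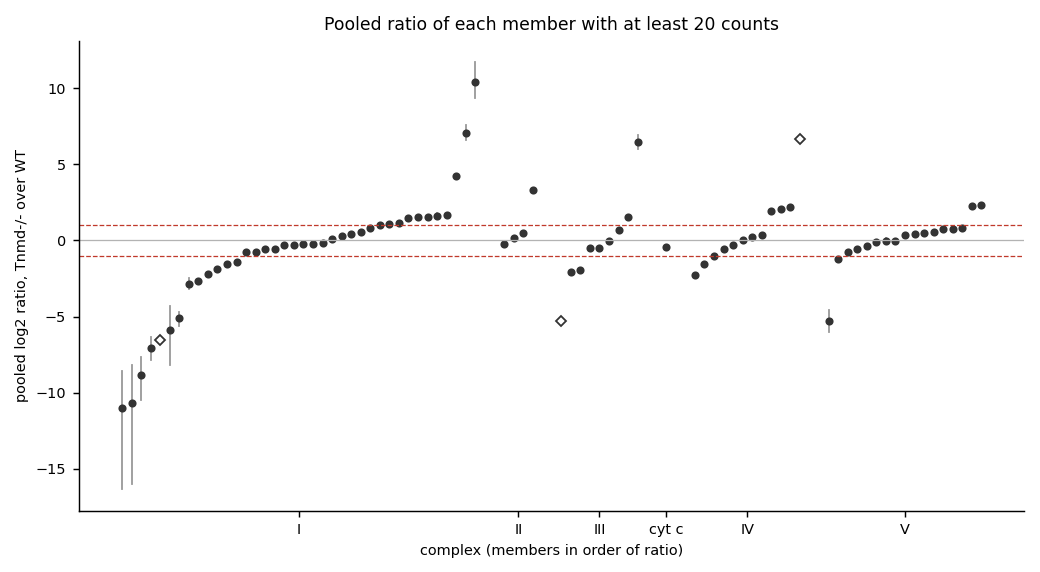
Pooled log2 ratio of Tnmd-/- over WT for each member with at least 20 counts, in order of ratio within each complex. Vertical bars are 95% counting intervals, open diamonds are bounds for members at 0 counts in a genotype, and dashed lines mark a 2-fold difference. The outermost points lie in complex I, at -11.02 for Ndufs7 and 10.39 for Ndufv1, and 41 of the 81 members lie between the dashed lines.

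Complex I, the NADH dehydrogenase, summed to 70.6 CPM at the lowest, 1802.9 at the median and 3321.3 at the highest in Tnmd-/- cells and to 1456.4, 2121.5 and 2753.0 CPM in WT cells. Tnmd-/- cells 3 and 7 (157 and 70.6 CPM) were far below all others, and the other 4 lay around the WT cells. Its pooled log2 ratio was 0.031 (0.018 to 0.044), 0.085 in the less and -0.23 in the more degraded cells, and turned to -0.41 with equal weight for each cell, to -0.68 under TMM and to -1.18 under DESeq2 scaling. Leaving out Tnmd-/- cell 10 gave -0.28, and leaving out Tnmd-/- cell 1, WT cell 4 or WT cell 14 also gave values just below 0 (-0.03 to -0.002). Of its 38 members with at least 20 counts, 10 were at least 2-fold higher and 13 at least 2-fold lower in Tnmd-/-, beside 39.7% and 38.3% of all genes.

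Ndufv1, Ndufv2 and Ndufs1, which take electrons from NADH, and Ndufs3, Ndufs7 and Ndufs8, which lie on the path to ubiquinone, belong to the catalytic core of complex I. Each of these 6 lay past 2-fold in 1 direction or the other, as did most of all genes (39.7% at least 2-fold higher and 38.3% at least 2-fold lower). Each had at least 10 counts in 2 to 4 of the 12 cells. The values of those other than Ndufs7 are given because each lay past 2-fold, after this was seen, and it is not read as a trait of the core. Ndufv1 had 6163 counts in Tnmd-/- and 7 in WT, a log2 ratio of 10.39 (9.34 to 11.70), and reached 10 counts in Tnmd-/- cells 9 and 10 alone. Ndufs8 (7.05), Ndufs1 (4.22) and Ndufs3 (1.15) also had pooled ratios above 0, and Ndufv2 (-5.11) was below 0. Ndufs8 had 10.58 in the less and -2.67 in the more degraded cells, both of them bounds set by the floor of 3 counts. It had no WT count in the less and no Tnmd-/- count in the more degraded cells. By level, less degraded first, Ndufs3 had 10.67 and -6.67, in opposite directions. Ndufs1 had 3.87 and 5.32, and Ndufv2 had -2.06 and -9.95. Most counts of each lay in 1 or 2 cells of a genotype, as with Ndufs3, which had 99.7% of its Tnmd-/- counts in cell 10 and 99.9% of its WT counts in cell 1.

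Ndufs7 (chromosome 10, 80249121 to 80256794), an iron-sulfur subunit of the core, was at 0 CPM in 5 Tnmd-/- cells and at 1.12 in cell 7, where this is 1 count. In the WT cells it was 0 at the lowest, 0.65 at the median and 444 CPM at the highest, in cell 1. The pooled log2 ratio was -11.02 (-16.33 to -8.55), and without WT cell 1, which held 83.9% of the WT counts, it was -8.56. In the more degraded cells the ratio was -10.39. The value of -6.93 in the less degraded cells, where no Tnmd-/- cell had a count, is a bound. Without Tnmd-/- cell 7 a bound of -9.40 was left. The ranges overlapped, because WT cell 2 and WT cell 4 had no count either.

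The accessory subunits of complex I surround this core and serve in assembly and stability. By level per kilobase of exon (RPKM, that is, CPM divided by the exon length in kilobases, over all 12 cells) the highest members of the complex were Ndufa2 with 369 and Ndufa1 with 277 RPKM, both small subunits. Ndufa2 was 1.12 CPM at the lowest, 61.4 at the median and 180 at the highest in Tnmd-/- cells, and 114, 234 and 951 CPM in WT cells. It had at least 10 counts in all 6 WT and in 4 Tnmd-/- cells, and Tnmd-/- cells 3, 7 and 9 lay below every WT cell while cells 1, 10 and 20 lay within the WT range. The pooled log2 ratio was -1.58 (-1.63 to -1.52), -0.95 in the less and -2.61 in the more degraded cells, and -2.22 without Tnmd-/- cell 10.

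Ndufa1 (chromosome X, 37187588 to 37191163), needed for assembly of the membrane arm, was 2.24 CPM at the lowest, 111 at the median and 248 at the highest in Tnmd-/- cells, and 0.62, 46.0 and 136 CPM in WT cells. Tnmd-/- cells 9, 10 and 20 lay above all WT cells and the other 3 within their range. Pooled, the log2 ratio was 1.11 (1.05 to 1.16), 1.00 in the less and 1.12 in the more degraded cells. It dropped under 2-fold (0.82 to 0.98) when Tnmd-/- cell 9 or 20 or WT cell 2, 4 or 14 was left out, and was 0.96 with TMM factors. Ndufa10, a subunit of the membrane arm related to nucleoside kinases, was 0, 5.99 and 362 CPM in Tnmd-/- cells and 0, 0.28 and 151 CPM in WT cells. Its ratio of 1.70 (1.62 to 1.77) rested on cell 10 of each genotype, and was -0.26 without Tnmd-/- cell 10 and 6.03 without WT cell 10. It was 1.35 in the less and 4.398 in the more degraded cells.

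Ndufa4 carries a complex I name but is found as a subunit of complex IV, and Ndufa4l2 is its relative induced by low oxygen. Ndufa4 was 0.38 CPM at the lowest, 20.6 at the median and 107 at the highest in Tnmd-/- cells, and 0, 11.2 and 179 CPM in WT cells, with a pooled log2 ratio of -0.27 (-0.35 to -0.20) that was 0.70 without WT cell 10, -0.41 in the less and 1.99 in the more degraded cells. All 6 less degraded cells had at least 22.0 CPM and no more degraded cell had over 3.36, whatever the genotype. Ndufa4l2 was 0, 7.33 and 36.9 CPM in Tnmd-/- cells and 0, 2.56 and 73.3 CPM in WT cells, and its ratio of 0.41 (0.25 to 0.57) was -0.22 with equal weight for each cell, -0.67 without Tnmd-/- cell 9 and 1.84 without WT cell 1. It was 1.82 in the less and -3.33 in the more degraded cells. Counting both genes with complex IV left the pooled ratios of complexes I and IV at 0.038 and 0.17. Outside the catalytic core, the other complex I members with at least 20 counts had ratios between -8.85 (Ndufa3) and 1.63 (Ndufb2).

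Complex II, succinate dehydrogenase, feeds electrons of the tricarboxylic acid cycle into the chain, and its 4 genes differed between the degradation levels more than between the genotypes. Summed over Sdha, Sdhb, Sdhc and Sdhd the level was 1.12 CPM at the lowest, 218 at the median and 592 at the highest in Tnmd-/- cells, and 0.21, 143 and 447 CPM in WT cells. The 6 less degraded cells held 283 to 592 CPM and the 6 more degraded cells 0.21 to 6.21 CPM. In Tnmd-/- cell 1 and WT cell 1, which are more degraded but had 10268.5 and 10430.3 CPM of all members, complex II stood at 6.21 and 2.67 CPM. The pooled ratio of less over more degraded cells was 7.36 on the log2 scale, against 0.21 for complex I, 0.16 for complex III, -0.33 for Cycs, -0.26 for complex IV and 0.73 for complex V. Between genotypes it was 0.67 (0.63 to 0.70), 0.54 in the less and 1.72 in the more degraded cells, above 0 under every scaling tried (0.24 to 0.84), and ran from 0.38 without Tnmd-/- cell 9 to 1.00 without WT cell 5.

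**Figure D4:**
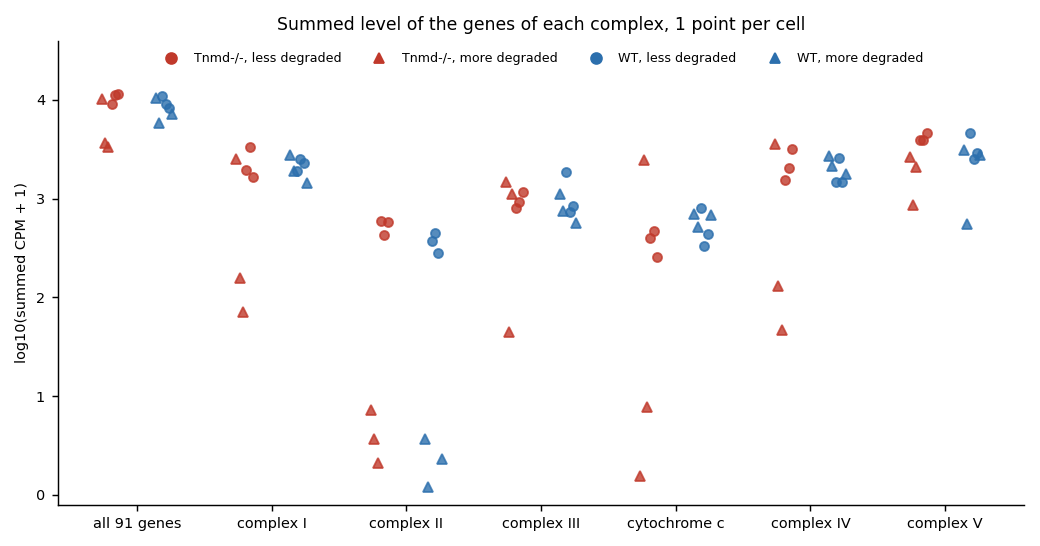
Summed CPM of all 91 genes and of each complex in each cell, as log10(CPM + 1). Red is Tnmd-/-, blue WT, circles less degraded and triangles more degraded cells. Complex II splits into circles at 283 to 592 CPM and triangles at 0.21 to 6.21 CPM, while circles and triangles overlap in the sums of the other complexes.

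Within complex II the cells differed in which subunits they held. Sdha (chromosome 13, 74322254 to 74350280), the flavoprotein that binds succinate, reached 160 CPM in Tnmd-/- cell 10 and 225 CPM in WT cell 10, with medians of 1.82 and 0.33 CPM and minima of 0 in both genotypes. The pooled log2 ratio was -0.25 (-0.33 to -0.16), -4.70 without Tnmd-/- cell 10 and 7.11 without WT cell 10, so that it compared these 2 cells. It was -0.40 in the less degraded cells and 3.85 in the more degraded ones, where no cell had over 5.27 CPM. Sdhb (chromosome 4, 140961203 to 140979193), the iron-sulfur subunit, was at 412 CPM in Tnmd-/- cell 9 and at 0 in the other 5 Tnmd-/- cells, and 0, 0.50 and 44.6 CPM in WT cells. Its ratio was 3.31 (3.19 to 3.43), turned to -6.66 without Tnmd-/- cell 9 and was 5.66 without WT cell 4. It was 3.19 in the less and -0.008 in the more degraded cells, where Sdhb had no Tnmd-/- count. The values -0.008 and -6.66 are therefore bounds set by the floor of 3 counts.

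The membrane anchors that hold the heme and the ubiquinone site were more widely detected. Sdhc (chromosome 1, 171127165 to 171150603) was 0 CPM at the lowest, 17.6 at the median and 177.5 at the highest in Tnmd-/- cells, and 0, 29.2 and 131 CPM in WT cells. Its ratio of 0.18 (0.11 to 0.25) was -0.20 with TMM factors and -0.75 without Tnmd-/- cell 9, and 0.047 in the less degraded cells. It had 33.9 to 177.5 CPM in the 6 less degraded cells and 0 to 1.33 CPM in the 6 more degraded cells, a log2 ratio of 8.43. Sdhd (chromosome 9, 50596357 to 50603812) was 0, 0.95 and 476 CPM in Tnmd-/- cells and 0, 1.27 and 308 CPM in WT cells, with a ratio of 0.46 (0.40 to 0.51) between genotypes, -0.45 without Tnmd-/- cell 20 and 1.38 without WT cell 5, and 0.33 in the less degraded cells. It was at least 204 CPM in 4 of the 6 less degraded cells and at most 1.67 CPM in the more degraded ones.

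Complex III, which passes electrons from ubiquinol to cytochrome c, summed to 43.9 CPM at the lowest, 1020.5 at the median and 1483.7 at the highest in Tnmd-/- cells and to 565, 800 and 1864.3 CPM in WT cells, with a pooled log2 ratio of -0.093 (-0.112 to -0.073) that was -0.28 in the less and 0.48 in the more degraded cells, 0.29 without WT cell 4 and 0.015 without Tnmd-/- cell 9. Cyc1 (chromosome 15, 76343523 to 76346260), the catalytic cytochrome c1, was at 0 in 11 cells and at 14.7 CPM (177 counts) in WT cell 5. Against the floor of 3 counts over the group it was at least 38.7-fold lower in the Tnmd-/- cells, a bound that rests on that cell. Of the 9 members 2 were at least 2-fold higher in Tnmd-/- and 3 lower, beside 39.7% and 38.3% of all genes. Uqcrfs1, the Rieske iron-sulfur protein, named after its values were seen, had 2214 counts in Tnmd-/-, of which 98.4% lay in cell 9, and 39 in WT, a ratio of 6.43 (5.98 to 6.93). Transcripts of Cyc1 were not detected in cells that held up to 1864.3 CPM of the other subunits of the complex, which came from WT cell 4.

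Among the other members of complex III the highest levels per kilobase were those of the small subunits Uqcrb and Uqcrq, at 164 and 157 RPKM. Uqcrb was 0 CPM at the lowest, 56.4 at the median and 285 at the highest in Tnmd-/- cells and 0, 146 and 268 CPM in WT cells, with a ratio of -0.48 (-0.54 to -0.43) that was 0.018 without Tnmd-/- cell 9 and -1.10 without Tnmd-/- cell 20. By level the ratio was -0.76 (less degraded) and 0.44 (more degraded). Uqcrq was 0.74, 316 and 1096.7 CPM in Tnmd-/- cells and 0.22, 172 and 445 CPM in WT cells, with a ratio of 0.66 (0.63 to 0.70) that was -0.26 in the less and 2.99 in the more degraded cells, 1.10 without WT cell 5 and 1.17 with TMM factors. In Tnmd-/- cell 7 Uqcrq gave most of the complex III sum of 1121.3 CPM.

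Among complex III members detected in at least 3 cells of the higher genotype, Uqcr11 and Uqcrc2 had the outermost ratios. Uqcr11, a small subunit of the membrane part, was 0 CPM at the lowest, 34.0 at the median and 240 at the highest in Tnmd-/- cells and 0, 0.21 and 131 CPM in WT cells. Pooled, the ratio was 1.55 (1.48 to 1.62), 1.42 in the less degraded cells, 0.91 without Tnmd-/- cell 9 and 2.88 without WT cell 4, and it had at least 10 counts in 5 of 6 less degraded and in no more degraded cell. Uqcrc2, a core protein, was 0, 0.53 and 254 CPM in Tnmd-/- cells, the highest in cell 20, and 0, 30.7 and 720 CPM in WT cells. Its ratio of -2.09 (-2.17 to -2.02) was -9.22 without Tnmd-/- cell 20 and -0.15 without WT cell 4, -2.04 in the less and -6.87 in the more degraded cells, and 19.8% of its exon bases overlap another gene. Uqcrh, the hinge protein, named after its values were seen, had at least 10 counts in 11 of 12 cells and a ratio of -0.009 (-0.060 to 0.041).

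Cycs (chromosome 6, 50562563 to 50566538) encodes cytochrome c, the soluble carrier between complexes III and IV, which also activates caspases once released from mitochondria. It was 0.56 CPM at the lowest, 326 at the median and 2473.5 at the highest in Tnmd-/- cells, and 333, 600 and 804 CPM in WT cells. All 6 WT cells thus lay within a narrow band, while Tnmd-/- cell 1 and cell 7 had 0.56 and 6.72 CPM and cell 3 had 2473.5 CPM, above every WT cell. Tnmd-/- cells 9, 10 and 20 lay at 257 to 468 CPM and so within the WT band or below it. The pooled ratio of -0.44 (-0.47 to -0.42) was near the same at both levels (-0.43 and -0.40), but was 0.05 with equal weight for each cell and 0.68 with TMM factors. Of 75-base windows of the Cycs transcript, 26.1% are also found in other genes. The reads of the study were paired and longer than these windows, so a shared window alone does not make a read pair match elsewhere. How many reads were lost in this way was not tested.

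Complex IV, cytochrome c oxidase, summed to 45.9 CPM at the lowest, 1803.9 at the median and 3596.5 at the highest in Tnmd-/- cells and to 1465.6, 1975.8 and 2737.6 CPM in WT cells. The pooled log2 ratio of 0.18 (0.17 to 0.19) was -0.22 with equal weight for each cell, -0.53 under TMM and -1.10 under DESeq2 scaling. Tnmd-/- cells 3 (131 CPM) and 7 (45.9 CPM) lay far below the other cells and hold few of the pooled counts. Of 12 members with at least 20 counts, 4 were at least 2-fold higher and 3 at least 2-fold lower in Tnmd-/-, beside 39.7% and 38.3% of all genes.

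The muscle isoforms Cox6a2, Cox7a1 and Cox8b and the testis isoforms Cox6b2, Cox7b2 and Cox8c had no count in any of the 12 cells, which allows at most 0.034 CPM over all cells. Their widely used counterparts were abundant: by level per kilobase Cox6b1 was the highest of all 91 members with 710 RPKM, Cox8a had 279, Cox6a1 226, Cox7a2 216 and Cox7b 67.3 RPKM. Cox4i1, the usual form of subunit 4, had 252 RPKM. Cox4i2, the form of lung and low oxygen, had 2.81 RPKM, from Tnmd-/- cells 9 (15.8 CPM) and 10 (3.20 CPM), and 0 in the other 10 cells. Pooled, Cox4i2 was at least 99.5-fold higher in Tnmd-/- against a floor of 3 counts over the WT cells, and the bound on the log2 scale went from 6.64 to 4.57 without Tnmd-/- cell 9.

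Cox6b1 (chromosome 7, 30616861 to 30626151), which faces the site where cytochrome c docks, was 4.48 CPM at the lowest, 528 at the median and 681 at the highest in Tnmd-/- cells, and 0.17, 409 and 901 CPM in WT cells. Cox4i1, the subunit that senses the ratio of ATP to ADP, was 2.66, 308 and 697 CPM and 107, 476 and 657 CPM. Cox7a2 was 3.36, 148 and 457 CPM and 78.4, 163 and 613 CPM. For all 3 the low end in Tnmd-/- came from cell 7 or cell 3, and their pooled log2 ratios of 0.21, 0.039 and 0.33 turned to -0.04, -0.42 and -0.25 with equal weight for each cell and were also below 0 with TMM or DESeq2 factors. The ratio of Cox4i1 lay between -0.28 and 0.37 as each cell was left out, and that of Cox7a2 was -0.05 without Tnmd-/- cell 20. In the less and the more degraded cells the ratios were 0.004 and 0.97 for Cox6b1, 0.13 and -0.05 for Cox4i1 and 0.76 and -0.81 for Cox7a2.

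Besides Cox4i2, the complex IV members at least 2-fold higher in Tnmd-/- were Cox6a1, Cox7b and Cox6c, a small membrane subunit, named after its values were seen (1.91, 1.85 to 1.97). Cox6a1 (chromosome 5, 115345642 to 115348981) was 0 CPM at the lowest, 135 at the median and 920 at the highest, in Tnmd-/- cell 1, and 0, 26.1 and 165 CPM in WT cells. The pooled ratio was 2.22 (2.16 to 2.28), 1.57 without Tnmd-/- cell 1, 3.13 without WT cell 4, and 1.52 and 3.79 at the less and more degraded levels. Cox7b (chromosome X, 106015700 to 106022450) was 0, 34.5 and 465 CPM in Tnmd-/- cells and 0, 21.7 and 74.8 CPM in WT cells, a ratio of 2.09 (2.02 to 2.17) that was 1.12 without Tnmd-/- cell 20. By level it was 2.25 (less degraded) and, under 2-fold, 0.68 (more degraded). In Cox6a1 the 3 highest Tnmd-/- cells (198 CPM and above) and in Cox7b the 2 highest (178 CPM and above) lay above every WT cell, and the others lay within the WT range.

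Cox7c, Cox7a2l and Cox8a were at least 2-fold lower. Cox7c (chromosome 13, 86044816 to 86046904), a small subunit of the membrane part, was 0 CPM at the lowest, 10.9 at the median and 60.2 at the highest in Tnmd-/- cells and 0.22, 125 and 222 CPM in WT cells, and 5 WT cells lay above all 6 Tnmd-/- cells. Its pooled ratio was -2.24 (-2.34 to -2.15), -1.98 in the less and -5.14 in the more degraded cells, and ran from -2.67 to -1.95 as each cell was left out in turn. Of its 75-base transcript windows 25.0% are also found in other genes. Cox8a was 0.10, 50.2 and 278 CPM and 0.33, 229 and 333 CPM, with a ratio of -1.005 (-1.06 to -0.95) that was -1.69 without Tnmd-/- cell 20 and, by level, -1.33 in the less and 0.26 in the more degraded cells. It dropped under 2-fold (-0.97 to -0.50) when Tnmd-/- cell 3, 7, 9 or 10 or WT cell 5, 10 or 14 was left out, and was -0.97 without the mitochondrially encoded genes in the totals.

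Cox7a2l, which takes part in joining complexes III and IV into supercomplexes, was 0 CPM at the lowest, 4.78 at the median and 167 at the highest in Tnmd-/- cells, and 0.15, 70.8 and 1107.2 CPM in WT cells. Its ratio of -1.58 (-1.64 to -1.52) rested on WT cells 1 and 14 with 783 and 1107.2 CPM, both more degraded. It was -0.99 without WT cell 1, -0.88 without WT cell 14 and -2.75 without Tnmd-/- cell 9, and was -9.08 in the more degraded cells and 1.00, in the opposite direction, in the less degraded cells.

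Complex V, the ATP synthase, had the most pooled counts of the complexes in both genotypes. It summed to 855 CPM at the lowest, 3260.8 at the median and 4588.7 at the highest in Tnmd-/- cells and to 551, 2837.2 and 4626.1 CPM in WT cells, and its ratio of 0.28 (0.27 to 0.29) turned to -0.079 under TMM and to -0.47 under DESeq2 scaling. All 17 members had at least 20 counts. Pooled CPM was within 2-fold for 13 of them, at least 2-fold higher in Tnmd-/- for Atp5e and Atp5o and at least 2-fold lower for Atp5j2 and Atp5s, beside 39.7% higher and 38.3% lower of all genes. Of these Atp5o is counted under a symbol that 2 annotated genes share.

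In the catalytic head, made of Atp5a1, Atp5b, Atp5c1, Atp5d and Atp5e, the median member had at least 10 counts in 9 of 12 cells. Atp5b (chromosome 10, 128083273 to 128090391) was 10.6 CPM at the lowest, 1391.0 at the median and 2283.5 at the highest in Tnmd-/- cells, and 68.2, 1021.7 and 2109.9 CPM in WT cells. All cells other than Tnmd-/- cells 3 and 7 and WT cell 2 had at least 892 CPM, and the pooled ratio of 0.38 (0.37 to 0.40) was -0.068 with equal weight for each cell, -0.41 with TMM factors, 0.43 in the less and -0.11 in the more degraded cells. Atp5e (chromosome 2, 174461072 to 174464105), the epsilon subunit at the foot of the central stalk, was 0, 96.5 and 574 CPM in Tnmd-/- cells and 0, 19.6 and 55.2 CPM in WT cells. Its ratio was 2.24 (2.16 to 2.31), 1.34 without Tnmd-/- cell 1, 0.74 in the less and 7.51 in the more degraded cells, where Tnmd-/- cells 1 and 7 had 574 and 491 CPM. In 4 Tnmd-/- cells, at 94.2 CPM and above, Atp5e was higher than in every WT cell.

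The ring of c subunits through which protons pass is made from Atp5g1, Atp5g2 and Atp5g3, which encode the same mature protein with different import signals. Atp5g3 was the highest per kilobase with 107 RPKM, then Atp5g1 with 57.7 and Atp5g2 with 25.9. Atp5g1 was 0.66 CPM at the lowest, 58.5 at the median and 524 at the highest in Tnmd-/- cells and 0, 133 and 1293.9 CPM in WT cells. Atp5g2 was 0, 47.1 and 73.1 CPM and 0, 7.76 and 84.3 CPM, and Atp5g3 was 1.33, 253 and 1521.2 CPM and 0, 113 and 436 CPM. The pooled log2 ratios were -0.57 (-0.61 to -0.53), 0.50 (0.41 to 0.59) and 0.84 (0.80 to 0.88). In the less and the more degraded cells they were 0.14 and -7.47 for Atp5g1, 0.07 and 3.79 for Atp5g2 and 0.76 and 1.09 for Atp5g3. Without WT cell 10 that of Atp5g2 was 1.31, and without WT cell 5 or 1 that of Atp5g3 was 1.25 or 1.13.

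Cells differed in which of the 3 genes led. In Tnmd-/- cell 7 Atp5g3 stood at 1521.2 CPM and Atp5g1 at 17.9, and in WT cell 1 Atp5g1 stood at 1293.9 CPM and Atp5g3 at 436. Summed over the 3 genes, Tnmd-/- cell 3 and WT cells 2 and 14 had 0.22 to 1.99 CPM and the other 9 cells 277 to 1739.2 CPM. The ratio of the sum was 0.12 (0.10 to 0.15) and -0.71 in the more degraded cells. Without WT cell 1 the ratio of Atp5g1 was 0.11, and without Tnmd-/- cell 9 it was -1.82.

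In the peripheral stalk (Atp5f1, Atp5h, Atp5j and Atp5o) the summed ratio was -0.064 (-0.092 to -0.036), and among the small membrane subunits (Atp5j2, Atp5k, Atp5l and Atp5mpl) -0.15 (-0.19 to -0.10) and 0.83 in the more degraded cells, where Atp5l alone had 830.0 CPM in Tnmd-/- cell 3. Atp5j2 (chromosome 5, 145183698 to 145192062), the f subunit, was at most 1.13 CPM in 5 Tnmd-/- cells and 111 CPM in cell 10, and 0 CPM at the lowest, 58.9 at the median and 151 at the highest in WT cells. Its ratio was -1.19 (-1.29 to -1.10) and -8.06 without Tnmd-/- cell 10. By level it was -1.08 in the less and -5.55 in the more degraded cells. It dropped under 2-fold (-0.97 to -0.67) without Tnmd-/- cell 1, 9 or 20 or WT cell 4.

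Set against the degradation level in place of the genotype, 37 of 81 members were at least 2-fold higher in the less degraded cells, while 48.7% of all genes were, and 9 were at least 2-fold lower, while 33.8% of all genes were. In 3 members all 6 less degraded cells lay above all 6 more degraded cells, which 0.338% of all genes had in either direction. They were Sdhc, Ndufa4 and Atp5mpl, a small subunit of the ATP synthase, with at least 33.9, 22.0 and 42.6 CPM in the less degraded and at most 1.33, 3.36 and 3.94 CPM in the more degraded cells. A single count in the shallowest cell equals 1.12 CPM. The level goes together with the library total in all 12 cells, and the 2 cannot be told apart.

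The 13 subunits encoded on mitochondrial DNA summed to 4064.2 CPM at the lowest, 6498.2 at the median and 82752.6 at the highest in Tnmd-/- cells and to 2844.3, 5101.6 and 8162.9 CPM in WT cells. The 91 nuclear genes had 0.044 times as many counts as the mitochondrial 13 in Tnmd-/- cell 3 and 0.73 times in cell 7, against 1.13 to 2.91 times in the other 10 cells. The pooled log2 ratio of the mitochondrial subunits was 0.74 (0.73 to 0.75), with 3 of 13 at least 2-fold higher and 0 lower, beside 39.7% and 38.3% of all genes. It was 0.017 in the less and 2.20 in the more degraded cells, and 0.11 (5980.1 against 5557.8 CPM) without Tnmd-/- cell 3. The member with the most counts, mt-Cytb of complex III, had 0.61 (0.60 to 0.62), -0.26 in the less and 2.20 in the more degraded cells. In Tnmd-/- cell 3 all mitochondrially encoded genes together made up 51.8% of the total that CPM divides by. The 13 subunits, at 82752.6 CPM, were the smaller part of this. Without mitochondrially encoded genes in the total, the nuclear sum of this cell was 7606.4 CPM. Low nuclear sums were also seen in Tnmd-/- cell 7 and WT cell 2, with mitochondrial sums of 4574.8 and 3196.9 CPM, the latter near the low end of the cells.

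**Figure D5:**
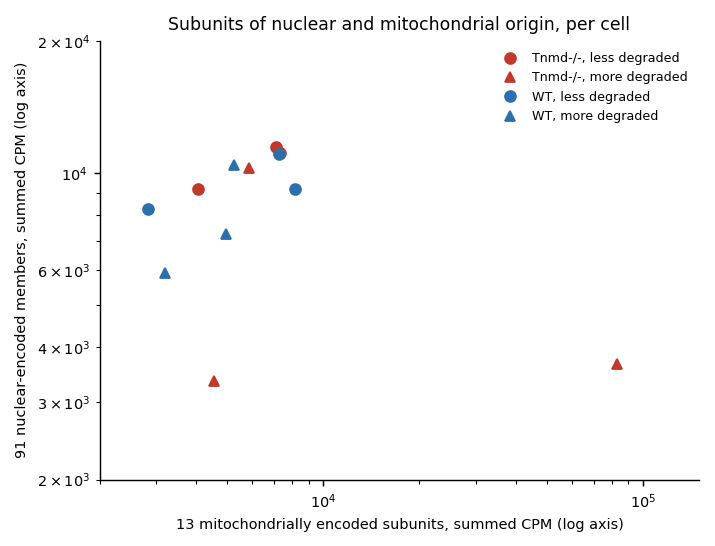
Summed CPM of the 91 nuclear-encoded genes against that of the 13 mitochondrially encoded subunits, 1 point per cell, on log axes. Symbols are as in the plot of complexes. Tnmd-/- cell 3 lies alone at 82752.6 CPM on the horizontal axis, and the other 11 cells lie between 2844.3 and 8162.9 CPM.

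Genes that serve the chain were described by the same counts, beside the 39.7% of all genes higher and 38.3% lower. Of 46 assembly factors 30 had at least 20 counts, 11 higher and 11 lower in Tnmd-/-. Uqcc2, a complex III assembly factor, had the most counts and a pooled log2 ratio of -0.75 (-0.82 to -0.68). Ndufaf4, which assembles complex I, had at least 10 counts in 4 WT cells and 0 Tnmd-/- cells (-9.31, -11.19 to -7.95), and Sco1, a copper carrier for complex IV, in 1 Tnmd-/- cell (10.77, 8.92 to 13.82). The summed ratio of the list was -0.62 (-0.64 to -0.59), -0.85 in the less and -0.009 in the more degraded cells.

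Of 14 enzymes of the tricarboxylic acid cycle, which supplies NADH and succinate, 13 had at least 20 counts, 6 higher and 5 lower. Mdh2, malate dehydrogenase, had the most counts and a ratio of 0.035 (0.001 to 0.070), 0.98 in the less and -3.72 in the more degraded cells. Idh3b, a subunit of isocitrate dehydrogenase, reached 10 counts in 2 Tnmd-/- cells and 1 WT cell, and its ratio was 3.12 (3.03 to 3.21). Idh3g, another subunit of that enzyme, had 17 counts in Tnmd-/- and 6229 in WT, a ratio of -7.91 (-8.69 to -7.23).

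Of the 6 carriers and pores that move ADP, ATP and phosphate, 4 were at least 2-fold higher and 1 lower in Tnmd-/-. Slc25a5, an ADP and ATP carrier, had the most counts of them, at least 10 in all 6 Tnmd-/- and in 4 WT cells, and a ratio of 2.21 (2.18 to 2.25) that was 3.00 in the less and -0.56 in the more degraded cells. Vdac2 had a ratio of 2.58 (2.49 to 2.68), 3.07 in the less and -4.72 in the more degraded cells, and of its Tnmd-/- cells cell 20 had 681.5 CPM and the next 12.3. Vdac1, the main pore of the outer membrane, had -3.14 (-3.24 to -3.05), -3.43 in the less and 2.44 in the more degraded cells. Of 12 regulators of these genes 10 had at least 20 counts, 3 higher and 4 lower. Gabpa, the DNA-binding part of GABP, had a ratio of 0.42 (0.38 to 0.47), its partner Gabpb1 -7.89 (-8.95 to -7.01) from 10 and 3607 counts, and the coactivator Pprc1 4.73 (4.35 to 5.13). Nrf1 reached 10 counts in 1 cell of each genotype, with 227 counts in Tnmd-/- and 1571 in WT, and it is named after its values were seen.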

How the data were processed

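Single cells were sequenced with Smart-Seq2, and the deposited table holds raw counts per gene symbol for 12 cells. To make these counts, the authors trimmed and decontaminated the reads, aligned them to GRCm38 (Ensembl release 96) with STAR 2.5.1b and counted unique exonic reads with featureCounts of Subread 2.0.0, after quality checks with FastQC 0.11.9 and MultiQC 1.9. Whether strand was used is not given in the sources used here, so overlapping and antisense genes may share reads. The study corrected its own log values for degradation, and the deposited counts are not corrected.

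Counts were divided by the library total (CPM), pooled within each genotype (6 cells) and compared as log2 ratios with 95% Clopper-Pearson intervals (Python 3.11.15, scipy 1.17.1, numpy 2.4.6, pandas 2.3.3, matplotlib 3.10.9). A genotype at 0 was set to 3 counts, which gives a bound, and no ratio was given where both had at most 3. Genes entered from 20 counts in all cells together, 2-fold was the mark for a difference, and 10 counts that for detection. TMM factors came from edgeR 4.0.16 and size factors from DESeq2 1.42.0 (R 4.3.3), as scalings without a test. Values under either scaling are means over cells with equal weight, not pooled, so they differ from the reported ratios in weight and in scaling. Each cell was left out in turn, and the degradation levels, filters and detection limits were varied. The ratio was tested on simulated Poisson counts in which a gene had the same level in all cells of a genotype. That setting holds no differences between cells, so it could not check the ratio or its interval against them. Library totals of 892713 to 13613080 counts limit detection.

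The members and lists were chosen with earlier results of these data known. Members were named if they were in a complex the 2 highest per kilobase, the largest ratio in each direction among those detected in 3 or more cells of the higher genotype, an isoform family, complex II, Cyc1 or Cycs. Of each other list the member with the most counts and at most 2 in each direction were named. Symbols with -ps (9) were left out, and some single genes are not reported here. Coordinates and overlaps are from GENCODE M21, and shared transcript windows are 75 bases.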

Additional observations from a re-analysis of the deposited data

Results flagged for a closer look

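In 17 of 74 groups of 6 cells, the highest cell stood apart from the other 5, its gap to the next being over Dixon's 95% value as a share of the whole range. The groups were each named member, the sums and the number of detected members within a genotype, without those at 0 in all 6 cells. Chance flags about 1 in 20 groups of normally distributed values, and CPM with many values near 0 are not such values, so that the rate is no measure for these. All values are CPM of that cell, with the next highest cell of the genotype after it.

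In complex I these were Ndufa10 in WT cell 10 (151.5, next 12.02), Ndufa4l2 in WT cell 1 (73.27, next 11.2), Ndufs7 in Tnmd-/- cell 7 (1.12, next 0) and Ndufs7 in WT cell 1 (444.5, next 36.4). In complex II they were Sdha in Tnmd-/- cell 10 (159.6, next 5.27) and in WT cell 10 (224.7, next 0.83), and Sdhb in Tnmd-/- cell 9 (412.3, next 0) and in WT cell 4 (44.65, next 7.65). In complex III and cytochrome c they were Cyc1 in WT cell 5 (14.73, next 0), Uqcrc2 in Tnmd-/- cell 20 (254.4, next 4.48) and Cycs in Tnmd-/- cell 3 (2473.5, next 467.9). In complex IV they were Cox4i2 in Tnmd-/- cell 9 (15.77, next 3.20) and Cox7a2 in WT cell 2 (613.4, next 201.8). In complex V they were Atp5g1 in Tnmd-/- cell 9 (523.5, next 154.4) and in WT cell 1 (1293.9, next 469.7), Atp5g3 in Tnmd-/- cell 7 (1521.2, next 518.2) and Atp5j2 in Tnmd-/- cell 10 (111.5, next 1.13).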

How the results depend on the processing

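The summed log2 ratio (0.135) was -0.088 with equal weights for cells, -0.249 with TMM, -0.688 with DESeq2 size factors, 0.174 without the mitochondrially encoded genes in the totals, 0.143 and 0.020 in the less and more degraded cells, and 0.063 to 0.234 as each cell was left out. The median member ratio (-0.021) was -0.295, -0.586, -0.532, 0.017, 0.069 and 0.135 under the same settings in that order, -0.067 with members of at least 1 count, -0.020 with 1 CPM added, and -0.218 to 0.156 as each cell was left out. With the same scalings the median of all genes was 0.081 as reported, -0.048, -0.258, -0.307 and 0.12. The 21 members at least 2-fold lower became 32 with DESeq2 size factors and 16 to 27 as each cell was left out, and the 19 higher became 16 to 24. The median number of detected members ran from 41 to 48 (Tnmd-/-) and from 39 to 58 (WT) as each cell was left out.

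In settings chosen after seeing the data, among them the mitochondrially encoded subunits without Tnmd-/- cell 3 (0.106 against 0.738), leaving out Tnmd-/- cells 3 and 7 gave 0.201 for the sum and -0.012 for the median, and leaving out WT cells 2 and 14 as well gave 0.119 and -0.114. Of the named members past 2-fold, Ndufa10, Sdhb, Cox7a2l and Cox8a changed sign under a setting. Ndufa10 did so without Tnmd-/- cell 10 (-0.261, against 6.033 without WT cell 10). Sdhb did so without Tnmd-/- cell 9 (-6.66, against 5.665 without WT cell 4) and in the more degraded cells (-0.008). Both values of Sdhb below 0 are bounds set by the floor of 3 counts. Cox7a2l did so in the less degraded cells (1.001) and Cox8a in the more degraded cells (0.259). Atp5b, Cox4i1 and Cox7a2, within 2-fold as reported, were -1.25, -1.05 and -1.31 with DESeq2 size factors. The cause, and the part of WT cell 14 with its small size factor in these values, were not tested. Of 585 values of 31 named members under other settings, 538 had the sign of the reported value and the others, mostly of members within 2-fold such as Sdha (7.11 without WT cell 10), Cycs (0.68 with TMM), Ndufa4 and Ndufa4l2, had not, and of 92 values of the complexes 76 had.

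No paired analysis was possible because the cell numbers only name cells and no test was made. With 1 sample per genotype, differences between animals cannot be told apart from differences between genotypes.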
